A study of Mus musculus with 9 samples.

Results

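The genes described here are 10 components and direct outputs of the circadian clock, chosen by symbol from the 55536 genes of the count table and followed through all 9 libraries: Per1, Per2, Per3, Dbp, Nr1d1, Nr1d2, Arntl, Clock, Ciart and Cry1. RNA was sequenced from the hippocampus of hAPP-J20 mice (Tg) and of non-transgenic mice (nTg). The J20 transgene, driven by a platelet-derived growth factor promoter, makes neurons express human amyloid precursor protein in a mutant form, and plaques form as the animals age. There were 3 Tg libraries at 15 weeks, 3 Tg libraries at 24 weeks, 1 nTg library at 15 weeks (replicate 2) and 2 nTg libraries at 24 weeks (replicates 1 and 3). A name such as Tg_24w_3 gives the genotype, the age and the replicate number. The hour at which tissue was taken and the sex of the animals are not in the labels, and the labelled batch is the age itself, so that the effects of batch and age cannot be told apart. The labels call the libraries biological replicates but do not tie each to a separate animal, so the p-values rest on the spread of these libraries, which could be partly technical.

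The clock of mammalian cells is a feedback loop. ARNTL (also called BMAL1) and CLOCK bind E-boxes and activate the Per and Cry genes, whose proteins return to block them. The same pair activates Nr1d1 and Nr1d2, whose products REV-ERB alpha and beta repress Arntl through RORE sites, and Dbp, whose product binds D-boxes. In mouse tissues kept in a light-dark cycle, Nr1d1, Dbp and Ciart transcripts peak in the light phase and the Per transcripts peak somewhat later, towards the onset of darkness, while Arntl peaks near the end of the night. Cry1 peaks later than the Per genes, and Clock cycles weakly in many tissues. The hippocampus holds such clocks, set by the suprachiasmatic nucleus and by glucocorticoids, and Per1 is also induced by neuronal activity.

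The promoter stretches of the members that carry clock motifs are shown because regulators of the loop bind such motifs. The motifs found did not decide which members were counted as light-phase genes below. They are RefSeq sequences of GRCm38.p6, 250 bases upstream of the RefSeq start, read on the strand of the gene. Capitals mark the E-box CACGTG, the related E-prime box CACGTT (seen on the other strand as AACGTG) and the D-box TTATGTAA.

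Ciart (chr3:95882229-95882478, minus strand): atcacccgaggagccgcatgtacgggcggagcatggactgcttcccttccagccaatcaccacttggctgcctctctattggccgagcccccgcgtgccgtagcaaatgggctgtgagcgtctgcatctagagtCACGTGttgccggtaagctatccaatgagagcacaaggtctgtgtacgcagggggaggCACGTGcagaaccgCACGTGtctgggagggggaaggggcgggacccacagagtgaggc
Per1 (chr11:69098699-69098948, plus strand): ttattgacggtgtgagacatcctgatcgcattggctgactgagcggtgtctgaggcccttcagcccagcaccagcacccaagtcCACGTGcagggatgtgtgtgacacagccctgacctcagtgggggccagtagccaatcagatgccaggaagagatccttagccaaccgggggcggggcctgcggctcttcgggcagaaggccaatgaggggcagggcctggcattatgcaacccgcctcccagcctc
Per3 (chr4:151044666-151044915, minus strand): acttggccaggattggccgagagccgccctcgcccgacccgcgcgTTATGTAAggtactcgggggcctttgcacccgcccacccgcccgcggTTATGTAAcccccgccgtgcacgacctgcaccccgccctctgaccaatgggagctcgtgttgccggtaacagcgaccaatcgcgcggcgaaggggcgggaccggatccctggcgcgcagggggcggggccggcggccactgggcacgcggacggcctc
Nr1d1 (chr11:98775378-98775627, minus strand): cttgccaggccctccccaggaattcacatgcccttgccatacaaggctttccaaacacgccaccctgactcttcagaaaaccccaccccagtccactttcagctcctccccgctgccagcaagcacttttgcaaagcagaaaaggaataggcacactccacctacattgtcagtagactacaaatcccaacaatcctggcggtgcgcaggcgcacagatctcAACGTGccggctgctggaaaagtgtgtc
Cry1 (chr10:85185055-85185304, minus strand): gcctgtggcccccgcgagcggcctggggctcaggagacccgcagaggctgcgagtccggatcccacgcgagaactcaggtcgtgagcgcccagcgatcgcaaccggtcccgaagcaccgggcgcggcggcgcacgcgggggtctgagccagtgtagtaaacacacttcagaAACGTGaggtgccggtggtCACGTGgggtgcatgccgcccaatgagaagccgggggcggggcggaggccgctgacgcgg

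For Arntl a 30-base stretch is shown in which capitals mark the RORE core TAGGTCA, the kind of site that the REV-ERB and ROR receptors bind.

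Arntl (chr7:113207527-113207556, plus strand): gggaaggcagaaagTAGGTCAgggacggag

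Motifs were searched on both strands in RefSeq windows from 250 bases before to 50 bases after each start, and 9 of the 10 members had a window. Ciart held 3 E-boxes, and Per1 and Cry1 held 1 each. Of 32851 windows in the table, 7.15% held an E-box, 4.68% an E-prime box, 0.938% the D-box and 2.61% the RORE core TAGGTCA. Nr1d1 and Cry1 each held 1 E-prime box, Per3 held 2 D-boxes, and the Arntl core lay 31 bases after the start of 1 of its transcripts. The windows of Dbp, Nr1d2 and Clock held none of the letters searched, which also included the D-box TTACGTAA, the RORE core TGGGTCA and the CRE TGACGTCA.

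All 10 members were counted in every library and passed the filter on low counts. Raw counts per member and library ran from 96 (lowest, Ciart) to 2344 (highest, Nr1d1). Per transcript length, as deposited TPM, the median level over the 9 libraries was highest for Nr1d1 (62.5 TPM), followed by Dbp (40.3), Nr1d2 (35.4), Per1 (26.8), Ciart (16.4), Clock (10.9), Per2 (8.37), Cry1 (8.10), Per3 (5.76) and Arntl (5.56). Neighbours in this order overlapped over the libraries. Dbp ran from 18.8 to 57.5 TPM and Nr1d2 from 23.4 to 40.2 TPM, for example, and Arntl ran from 3.97 to 8.40 TPM against 4.74 to 7.90 TPM for Per3.

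All further levels are TMM-normalised CPM, that is read counts scaled to library size, and all differences are on the log2 scale. Total counts lay between 12733452 and 21529266 per library. Tg_24w_3 had the fewest and stood apart on the first principal component (36.9% of the variance; 84.3 against −30.7 to 4.85 for the other 8 libraries). It also held the highest summed level of the 6 striatum markers (286 CPM against 105 to 158) and of the 5 blood markers (785 CPM against 144 to 402), and the lowest of the 2 CA1 pyramidal cell markers (198 CPM against 256 to 345). Markers of hippocampal dentate granule cells and CA1 cells were counted in every library. Choroid plexus markers summed to 1819 to 6747 CPM, lowest in Tg_15w_3 and Tg_24w_2. Since these are whole-tissue samples, fewer cells of a type and less RNA per cell cannot be told apart.

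The REV-ERB gene Nr1d1, on chromosome 11 (98767932 to 98775333, minus strand), varied most among the members, with an SD of 0.60 over the 9 libraries on the log2 scale. It stood at 118, 85.9 and 27.7 CPM in Tg_24w replicates 1, 2 and 3, and at 66.1, 95.0 and 68.5 CPM in Tg_15w. In nTg it stood at 87.5 CPM at 15 weeks and at 100.4 and 74.0 CPM at 24 weeks (replicates 1 and 3). The 24-week Tg group held both the highest and the lowest library of the series, and no pair of groups was separated. Exons of Nr1d1 share 263 bases (8.55% of its exonic length) with Thra, a thyroid hormone receptor gene on the opposite strand at 591 to 831 CPM. The strand setting of the counting is not given in the sources used here, so reads in those bases cannot be told apart.

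The D-box activator Dbp had the same order of libraries within Tg_24w, but not within Tg_15w or nTg. It stood at 80.2, 56.3 and 31.3 CPM in Tg_24w replicates 1, 2 and 3, at 40.6, 48.4 and 53.6 CPM in Tg_15w, and at 41.9 (15 weeks), 54.3 and 55.8 CPM in nTg. Tg_24w_1 was again highest and Tg_24w_3 lowest. Dbp shares 539 exonic bases (18.0%) with Sphk2, a sphingosine kinase gene on the opposite strand at 23.9 to 46.2 CPM, whose highest library was Tg_24w_3.

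Ciart, which encodes a repressor of CLOCK and ARNTL activity, was lowest in the same library. It stood at 20.1, 17.8 and 7.80 CPM in Tg_24w, at 15.4, 17.6 and 20.8 CPM in Tg_15w, and at 14.9 (15 weeks), 11.3 and 17.4 CPM in nTg. Apart from Tg_24w_3, its lowest value was in nTg_24w_1, the library with the highest Arntl. Nr1d2, which encodes REV-ERB beta, spread less, with 91.6, 64.2 and 70.3 CPM in Tg_24w, 102, 101 and 89.1 CPM in Tg_15w, and 85.0 (15 weeks), 80.2 and 88.7 CPM in nTg. The 3 Tg libraries at 15 weeks lay just above the 3 nTg libraries, and Tg_24w held 2 libraries below the nTg range and 1 above it.

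Per1, the period gene that also responds to neuronal activity, was the steadiest member (SD 0.12 over the 9 libraries). Its levels were 68.8, 59.2 and 66.7 CPM in Tg_24w, 71.6, 71.9 and 67.3 CPM in Tg_15w, and 78.3 (15 weeks), 71.4 and 75.1 CPM in nTg. The 3 libraries of Tg_24w lay below the 3 nTg libraries, with 68.8 and 71.4 CPM the nearest values. Per2, the period gene whose loss shortens and then abolishes behavioural rhythms of mice in darkness, stood at 21.3, 21.9 and 20.5 CPM in Tg_24w, 25.5, 21.7 and 31.7 CPM in Tg_15w, and 22.4 (15 weeks), 16.6 and 31.7 CPM in nTg. The 2 nTg libraries at 24 weeks held the lowest and the highest value of the series.

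Per3, whose loss leaves behavioural rhythms of mice largely intact, showed the same split of the 24-week nTg libraries, with 19.7 CPM in replicate 1 and 35.1 CPM in replicate 3, the lowest and the highest value of all 9. Its other levels were 25.1 CPM in nTg_15w_2, 24.1, 24.8 and 30.7 CPM in Tg_24w, and 31.6, 24.3 and 29.9 CPM in Tg_15w. The groups overlapped.

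The activator gene Arntl was highest in the library where Per2 and Per3 were lowest. It stood at 27.3 CPM in nTg_24w_1 and 23.9 CPM in nTg_15w_2, with 17.9 CPM in nTg_24w_3. Tg_24w held 19.0, 19.6 and 16.6 CPM and Tg_15w 19.7, 22.6 and 17.1 CPM. Both Tg groups overlapped nTg through nTg_24w_3. Clock, the partner of Arntl, stood at 60.7, 47.0 and 81.7 CPM in Tg_24w, at 76.8, 76.8 and 61.4 CPM in Tg_15w, and at 77.1 (15 weeks), 69.1 and 63.6 CPM in nTg, with Tg_24w again the widest group. Cry1, the repressor cryptochrome, lay within 9.85 to 14.2 CPM in all 9 libraries.

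**Figure D1:**
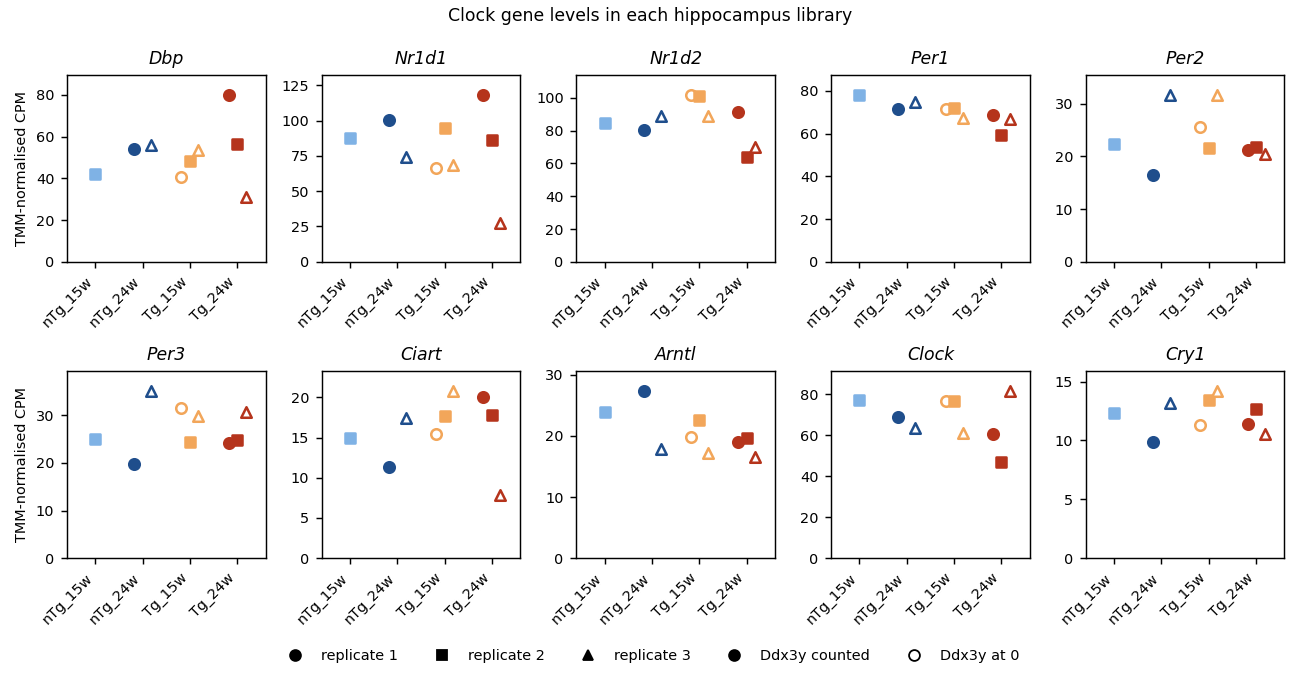
Levels of the 10 clock genes in each library (y axis: TMM-normalised CPM from 0; x axis: group; each point is 1 library, its shape the replicate, open where the Y-linked gene Ddx3y was at 0). Tg_24w_3 lies lowest for Nr1d1 (27.7 CPM), Dbp (31.3 CPM) and Ciart (7.80 CPM), and the 4 open points are the highest for Per3 and the lowest for Nr1d1.

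The first comparison asked whether clock genes differ by genotype over the libraries of both ages. None of the 10 members passed the threshold (edgeR, adjusted p under 0.05), nor did any of the 17457 genes tested (0%). At an unadjusted p under 0.05 there were 0 members beside 941 genes (5.39%). Among the members, 4 differences were positive and 6 negative, with a median of −0.03 on the log2 scale beside 0.02 for all genes. The difference of Arntl was −0.29 ± 0.15 (SE; edgeR adjusted p = 0.857) and that of Per1 −0.17 ± 0.10 (edgeR adjusted p = 0.857), and the other 8 were smaller than their SE. No member separated all 6 Tg from all 3 nTg libraries, as 2.33% of genes did. Within a labelled batch, Arntl differed by −0.33 ± 0.23 in the 24-week libraries alone and by −0.28 ± 0.20 in the 15-week libraries alone (1 nTg library), and Per1 by −0.21 ± 0.18 and −0.16 ± 0.16. Over all genes, 5 passed the threshold without Tg_24w_3 and 4 without nTg_15w_2, and no member was among them. Without nTg_15w_2 no nTg library is left at 15 weeks, so that fit compares only Tg_24w with the 24-week nTg libraries.

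Before plaques, Tg at 15 weeks was set against the 3 nTg libraries of both ages. The count of members past the threshold was 0 of 10, and that of all genes 0 of 17457 (0%; edgeR). At an unadjusted p under 0.05 the counts were 0 members and 575 genes (3.29%). The differences larger than their SE were 0.30 ± 0.28 for Ciart, 0.20 ± 0.15 for Nr1d2 and −0.22 ± 0.18 for Arntl, each with an adjusted p of 0.9999. Nr1d2 was the 1 member whose groups did not overlap, beside 10.5% of genes. The median over the members was 0.07, and that over all genes 0.00.

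After plaques, Tg at 24 weeks was set against the same 3 nTg libraries. Of the members 0 passed the threshold, beside 23 of 17457 genes (0.132%; edgeR), a count that was 36 without Tg_24w_3 and between 4 and 16 without any other single library. At an unadjusted p under 0.05 there were 0 members and 2273 genes (13.0%). Arntl differed by −0.32 ± 0.18 (edgeR adjusted p = 0.443), Per1 by −0.21 ± 0.12 (edgeR adjusted p = 0.465) and Nr1d2 by −0.17 ± 0.15. The groups did not overlap for Per1, beside 16.9% of genes. Without Tg_24w_3, Dbp differed by 0.42 ± 0.17 and Clock by −0.38 ± 0.15 (edgeR adjusted p = 0.427 and 0.396), against 0.15 ± 0.26 and −0.15 ± 0.19 with it.

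Between ages within Tg, 24 weeks against 15 weeks, the members again gave 0 calls, beside 6 of 17457 genes (0.0344%; edgeR). That count of genes was 14 without Tg_24w_3, 3 without nTg_24w_1, 2 without nTg_15w_2 or Tg_15w_2, and 1 without Tg_15w_1 or Tg_15w_3. Nr1d2 was 97.5 ± 7.32 CPM at 15 weeks (SD, n = 3) and 75.4 ± 14.4 CPM at 24 weeks (n = 3), a difference of −0.37 ± 0.15 with an unadjusted p of 0.0254 and an edgeR adjusted p of 0.272. It was the 1 member under an unadjusted p of 0.05, beside 15.2% of genes, and the 2 groups overlapped, with Tg_24w_1 (91.6 CPM) above Tg_15w_3 (89.1 CPM). Without overlap there were 0 members, beside 20.8% of genes. Per2 differed by −0.31 ± 0.22 and Cry1 by −0.17 ± 0.17. Without Tg_24w_3 the differences were 0.51 ± 0.17 for Dbp, 0.41 ± 0.18 for Nr1d1, −0.42 ± 0.15 for Clock and −0.34 ± 0.14 for Nr1d2 (edgeR adjusted p between 0.307 and 0.394). All 9 libraries gave 0.24 ± 0.26, 0.02 ± 0.37, −0.19 ± 0.19 and −0.37 ± 0.15. Leaving out Tg_24w_3 leaves only libraries with Ddx3y in Tg_24w, while Tg_15w_1 and Tg_15w_3 lack it. With all 9 libraries and a term for Ddx3y, added after seeing the data, the differences were 0.11, −0.39, −0.17 and −0.39.

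Whether the genotype difference changed with age was tested as an interaction, in which the single 15-week nTg library is assumed to vary like the other groups. No member passed, nor did any of 19574 genes (0%; edgeR). At an unadjusted p under 0.05 there were 0 members and 408 genes (2.08%). The estimates larger than or equal to their SE were −0.41 ± 0.41 for Per2 and −0.36 ± 0.29 for Nr1d2. That of Per2 was −0.80 without nTg_24w_1 and 0.13 without nTg_24w_3. Leaving out Tg_24w_3 and nTg_24w_1 together, a setting chosen after seeing the data, leaves a single nTg library at each age. Of these, nTg_15w_2 held Ddx3y counts and nTg_24w_3 did not. The estimates were then −0.81 for Per2, −0.74 for Per3 and 0.63 for Nr1d1, and none passed. With all 9 libraries and a term for Ddx3y, also added after seeing the data, they were −0.03, 0.19 and −0.92.

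**Figure D2:**
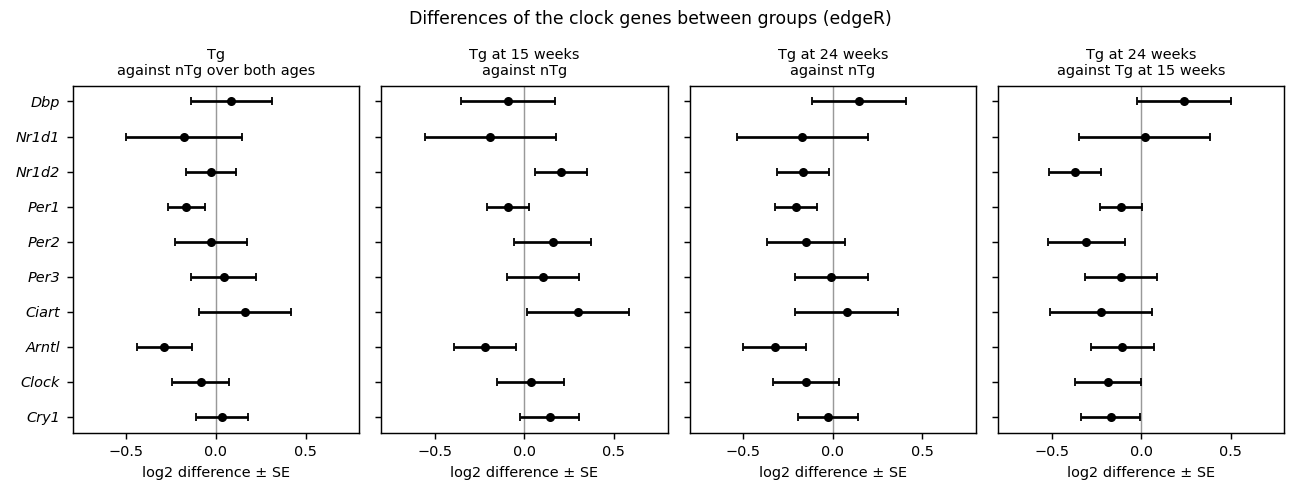
Differences of each clock gene in 4 comparisons (x axis: log2 difference with its SE from edgeR as bars; y axis: gene; the grey line marks 0). The values lie between −0.37 (Nr1d2, Tg at 24 against 15 weeks) and 0.30 (Ciart, Tg at 15 weeks against nTg), and none passed the threshold.

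Members of opposite phase were also set against each other, which gave 1 value per library drawn from several genes. For each library the mean log2 CPM of Arntl and Clock was subtracted from the mean of the 7 light-phase members (Dbp, Nr1d1, Nr1d2, Per1, Per2, Per3 and Ciart). This difference was 0.51, 0.41 and −0.31 in Tg_24w replicates 1, 2 and 3, 0.12, 0.08 and 0.50 in Tg_15w, and −0.06 (15 weeks), −0.19 and 0.49 in nTg. Each group with more than 1 library held both a high and a low value. A few genes can still carry the value of a library. In Tg_24w_3, Nr1d1, Ciart and Dbp stood at −1.63, −1.15 and −0.775 from their medians (log2), but Per3 at 0.293 and Arntl at −0.239. Members of the same side did not always move together, with an r of 0.19 for Arntl and Clock over the 9 libraries. Members of opposite sides did not always move apart. Per1 and Clock had an r of 0.67, Nr1d1 and Arntl 0.59, and Nr1d2 and Clock 0.44. Other such pairs were negative, among them Per3 and Arntl (−0.79), Dbp and Clock (−0.68) and Ciart and Clock (−0.56). The group means were 0.23 ± 0.23 (SD, n = 3) for Tg_15w, 0.20 ± 0.45 (n = 3) for Tg_24w and 0.08 ± 0.36 (n = 3) for nTg. Tg lay 0.14 above nTg over both ages, Tg_15w 0.15 above and Tg_24w 0.12 above, and Tg_24w stood at −0.03 relative to Tg_15w. With all 9 libraries these differences were smaller than the pooled SD between libraries (0.33, 0.30, 0.41 and 0.36), but single libraries decided that. Without nTg_24w_3, Tg lay 0.34 above nTg (pooled SD 0.295) and Tg_15w 0.355 above it (pooled SD 0.199). Without Tg_24w_3, Tg_24w lay 0.38 above nTg (pooled SD 0.295) and 0.23 above Tg_15w (pooled SD 0.195). Without nTg_24w_1, in turn, Tg lay 0.002 above nTg, Tg_15w 0.016 above it and Tg_24w at −0.01 relative to it. Dbp minus Arntl alone gave 0.24 for Tg against nTg. Adding Npas2, Nfil3 and Cry1 to the side of Arntl and Clock gave 0.07, though Cry1 was on neither side in the main value.

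**Figure D3:**
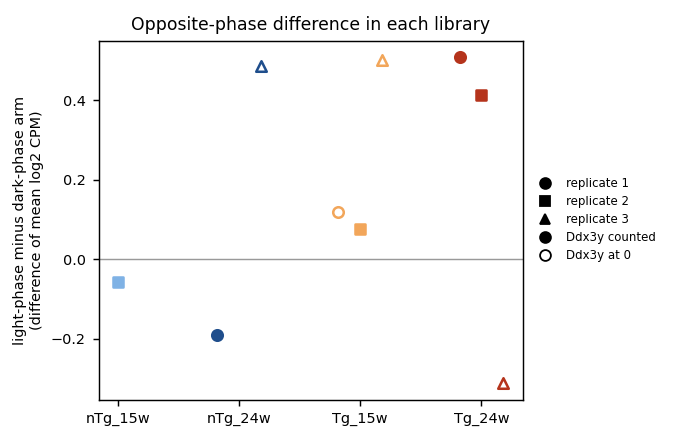
Mean log2 CPM of the 7 light-phase members minus that of Arntl and Clock in each library (y axis, log2 scale; x axis: group; shapes are replicates, open points lack Ddx3y counts). Values run from −0.31 in Tg_24w_3 to 0.51 in Tg_24w_1, 2 libraries of the same group.

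Across the 9 libraries, Per3 and Per2 had the lowest correlations with Arntl and the REV-ERB gene Nr1d1 the highest, and none passed the adjustment. Over log2 CPM, with exact two-sided permutation p-values adjusted over the 9 relations computed, Per3 had a Pearson r of −0.79 (p = 0.0109, adjusted p = 0.0985) and a Spearman rho of −0.55 (p = 0.133, adjusted p = 0.533). Of all genes tested, 2.73% had an r with Arntl as low. Per2 had an r of −0.63 (exact permutation p = 0.0662, adjusted p = 0.288) and a rho of −0.27 (exact permutation p = 0.493, adjusted p = 0.781). Without the 2 libraries farthest from the median of Arntl, which were nTg_24w_1 and nTg_15w_2, r was −0.59 for Per3 and −0.35 for Per2. As deviations from the group means, the r values were −0.93 and −0.91. In that setting the single nTg_15w library carries no deviation and the nTg_24w pair are mirror images, so few independent values remain. Nr1d1 had an r of 0.59 (exact permutation p = 0.0959, adjusted p = 0.288) and a rho of 0.60 (exact permutation p = 0.0968, adjusted p = 0.533).

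Among the other relations with Arntl, those of Ciart, Dbp, Cry1 and Nr1d2 changed sign when single libraries were left out. Ciart had an r of −0.08 over all 9 libraries, −0.86 without Tg_24w_3 and 0.25 without nTg_24w_1, and −0.67 without both, a setting chosen after seeing the data. Dbp had 0.09 over all and −0.31 without Tg_24w_3, and Cry1 had −0.34, −0.63 without Tg_24w_3 and 0.16 without nTg_24w_1. Nr1d2 had 0.13, and between −0.09 and 0.31 leaving out single libraries. Per1 (0.39) and Clock (0.19) stayed positive without any single library, at 0.23 to 0.53 and 0.09 to 0.46. Exact permutation p-values for these 6 members lay between 0.306 and 0.833 before adjustment, and 0.662 and 0.833 after it. The 15-week batch has 4 libraries and the 24-week batch 5, too few for an r within batches.

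**Figure D4:**
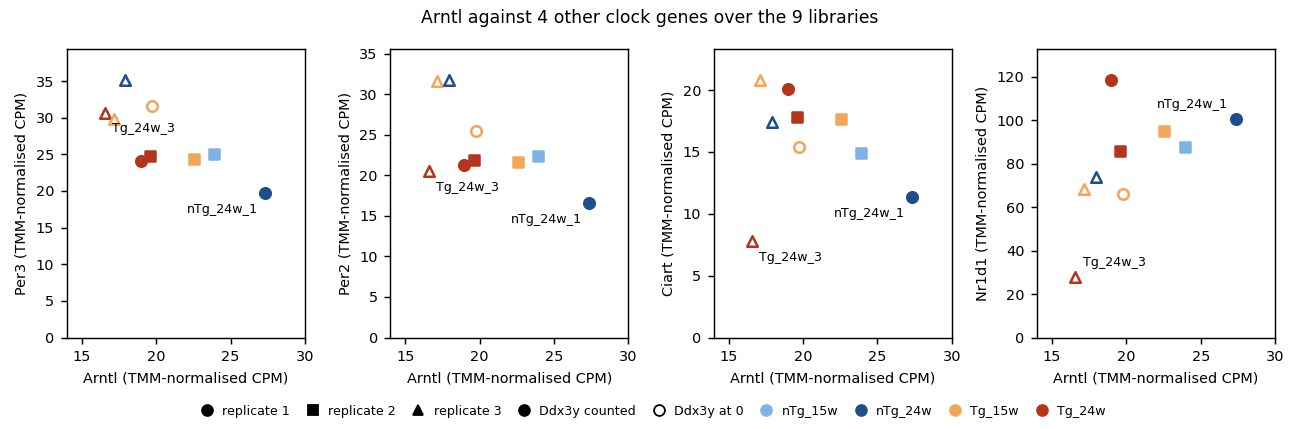
Per3, Per2, Ciart and Nr1d1 (y axes, TMM-normalised CPM from 0) against Arntl (x axis, TMM-normalised CPM, not from 0), with 1 point per library, coloured by group. Per3 falls from 35.1 to 19.7 CPM between nTg_24w_3 and nTg_24w_1 (r = −0.79 over all 9), and Tg_24w_3 is the low point for Ciart and Nr1d1.

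Among themselves the members formed pairs that the choice of genes did not fix. As a description over 9 libraries that share groups and depth, Per2 and Per3 had an r of 0.82, Dbp and Nr1d1 0.80, Per2 and Cry1 0.76, Ciart and Cry1 0.73, and Dbp and Ciart 0.72. Per3 and Nr1d1, both light-phase genes, had an r of −0.59. Without Tg_24w_3, a setting chosen after seeing the data, Dbp and Ciart had 0.42, Dbp and Nr1d1 0.62, and Per2 and Per3 0.94. Per2 and Cry1 then had 0.75, Ciart and Cry1 0.75, and Per3 and Nr1d1 −0.78. Of pairs from opposite sides in that setting, Per1 and Clock had 0.85 and Nr1d2 and Clock 0.78. Dbp and Clock had −0.59 and Ciart and Clock −0.41.

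Per3 and Nr1d1 also divided the libraries along a line that is not a labelled group. The Y-linked gene Ddx3y was at 0 CPM in 4 libraries, Tg_24w_3, Tg_15w_1, Tg_15w_3 and nTg_24w_3, and these held 48.5 to 114 CPM of Xist, which female cells transcribe from their inactive X chromosome. The other 5 held Ddx3y at 28.1 to 57.2 CPM, and 1 of them, nTg_24w_1, also held 7.33 CPM of Xist. The 4 libraries without Ddx3y held the 4 highest values of Per3 (29.9 to 35.1 CPM against 19.7 to 25.1) and the 4 lowest of Nr1d1 (27.7 to 74.0 CPM against 85.9 to 118). These were 2 of 10 members without overlap, beside 2.96% of genes. Because the order held over all 9 libraries, the same division within Tg_24w, Tg_15w and nTg_24w followed from it and is no further check. Of the 11 glucocorticoid-responsive genes, Cdkn1a (16.6 to 22.4 CPM against 6.90 to 9.19) and Mt1 (272 to 390 CPM against 221 to 265) did not overlap either, 2 genes named after their values were seen. The libraries were divided in this way after the data were seen, so no test is given, and whether sex, hour of sampling or handling moved with these values was not tested. With a term for Ddx3y in the fits, also added after seeing the data, 0 members passed in any comparison.

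Other genes of the clock gave the same count of calls. Of 23 further clock genes, 0 passed the threshold in any of the 5 comparisons (edgeR), with medians of −0.07 for Tg against nTg, 0.05 at 15 weeks, −0.10 at 24 weeks and −0.11 between the ages in Tg. Bhlhe41, a repressor of E-box transcription also called Dec2, was 30.9 to 36.4 CPM in the 6 Tg libraries and 26.4 to 28.3 CPM in the 3 nTg libraries, which did not overlap. Its difference was 0.35 ± 0.11 with an unadjusted p of 0.0068 but an edgeR adjusted p of 0.773. Of all genes, 2.33% did not overlap between Tg and nTg. Bhlhe41 was 1 of the 23 under an unadjusted p of 0.05 in that comparison, beside 5.39% of all genes. The related repressor Bhlhe40 stood at 46.6 CPM in Tg_24w_3 and 77.9 to 99.8 CPM elsewhere. Npas2, a paralog of Clock, stood at 7.23 CPM in Tg_24w_3 against 18.0 to 25.1 CPM in the other 8, and Hlf, a D-box activator, at 73.8 against 125 to 162 CPM. With Nr1d1, Dbp and Ciart these were lowest in the library that also differed in its tissue markers and depth, and the part of those in the low values was not tested.

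For the other named clock genes, Cry2, Tef, Nfil3, Rora and Rorb differed by −0.09, −0.06, −0.13, −0.11 and −0.19 between Tg and nTg, with SE between 0.14 and 0.19. Usp2, a deubiquitinase with a rhythmic transcript, differed by 0.24 ± 0.12 (edgeR adjusted p = 0.857).

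Genes of 2 inputs to the clock were read beside it. Of the 11 glucocorticoid-responsive genes, 1 fell in Tg at 24 weeks against nTg, beside 14 of all 17457 genes called lower (0.0802%). This was Sgk1, a kinase gene, with 76.1, 58.9 and 69.7 CPM in Tg_24w against 144, 123 and 146 CPM in nTg, a difference of −1.01 ± 0.14 (edgeR adjusted p = 0.0144). The call was lost without nTg_15w_2 or nTg_24w_3. Fkbp5, a feedback regulator of the glucocorticoid receptor, differed by −0.51 ± 0.15 between 24 and 15 weeks in Tg, and Tsc22d3 by −0.59 ± 0.18, and neither passed (edgeR adjusted p = 0.215 and 0.221). The list's median in that comparison was −0.51 beside 0.02 for all genes. In the same comparison tissue markers had medians of 1.01 for the 5 blood markers, 0.66 for the 8 choroid plexus markers, 0.61 for the 6 striatum markers and −0.42 for the 3 dentate granule cell markers. Of the genes of these lists, 1 passed the threshold: Dsp, a desmosome gene that marks dentate granule cells, fell by 1.62 (edgeR adjusted p = 0.0064) as the 1 gene of all 17457 called lower (0.00573%), beside 0 members. That call was lost without Tg_15w_1 or Tg_15w_3. Another dentate granule cell marker, C1ql2, went the other way (1.13 ± 0.19) and did not pass (edgeR adjusted p = 0.080). The part of these markers in the list's median was not tested.

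Of the 12 activity-regulated genes, 4 fell in Tg at 24 weeks: Fos (−2.34 ± 0.26, edgeR adjusted p = 0.0046), Arc (−1.38 ± 0.21), Nr4a1 (−1.13 ± 0.17) and Egr1 (−1.07 ± 0.17). The immediate-early gene Fos stood at 2.87 to 3.13 CPM in Tg_24w and 11.7 to 17.5 CPM in nTg. These are 4 of 12 genes beside 0.0802% of all genes. The call of Egr1 was lost without any single library other than Tg_24w_3, and that of Arc without any other than Tg_24w_2, Tg_24w_3 or nTg_24w_3. That of Nr4a1 was lost without Tg_24w_1, Tg_24w_2, Tg_15w_3, nTg_24w_1 or nTg_15w_2. In Tg at 15 weeks against nTg, 0 of the 12 passed, but all 12 differences were negative, with a median of −0.59. Of these, 9 were under an unadjusted p of 0.05 (edgeR), beside 3.29% of all genes. Fos differed there by −1.29 ± 0.25 and Arc by −0.93 ± 0.21. Per1, which neuronal activity also induces, was called in no comparison.

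Markers of tissue makeup were read in Tg at 24 weeks against nTg as well. Of the 3 dentate granule cell markers 1 fell, Dsp, with 8.04 to 9.72 CPM in Tg_24w and 31.5 to 42.1 CPM in nTg (−2.10 ± 0.18, edgeR adjusted p = 0.00039). Prox1, a transcription factor gene of granule cells, stood at 37.0 to 55.0 CPM against 74.0 to 80.9 CPM (−0.80 ± 0.15, edgeR adjusted p = 0.065). C1ql2, the remaining marker of the list, went the other way and was higher in Tg_24w (0.53 ± 0.18, edgeR adjusted p = 0.309). The summed level of the 3 markers was 140 to 222 CPM against 184 to 216 CPM. Of the 6 striatum markers 1 rose, the dopamine receptor gene Drd1, with 10.9 to 13.1 CPM against 3.33 to 5.05 CPM (1.54 ± 0.20, edgeR adjusted p = 0.0121). The Drd1 call was lost without nTg_15w_2 or nTg_24w_3, and the part of these markers in the activity-regulated and Sgk1 values was not tested.

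The cold-inducible RNA-binding protein genes Cirbp and Rbm3 differed by 0.28 ± 0.12 and −0.16 ± 0.13 in Tg at 24 weeks and did not pass (edgeR adjusted p = 0.369 and 0.607), and 0 of 5 heat shock genes passed in any comparison.

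**Figure D5:**
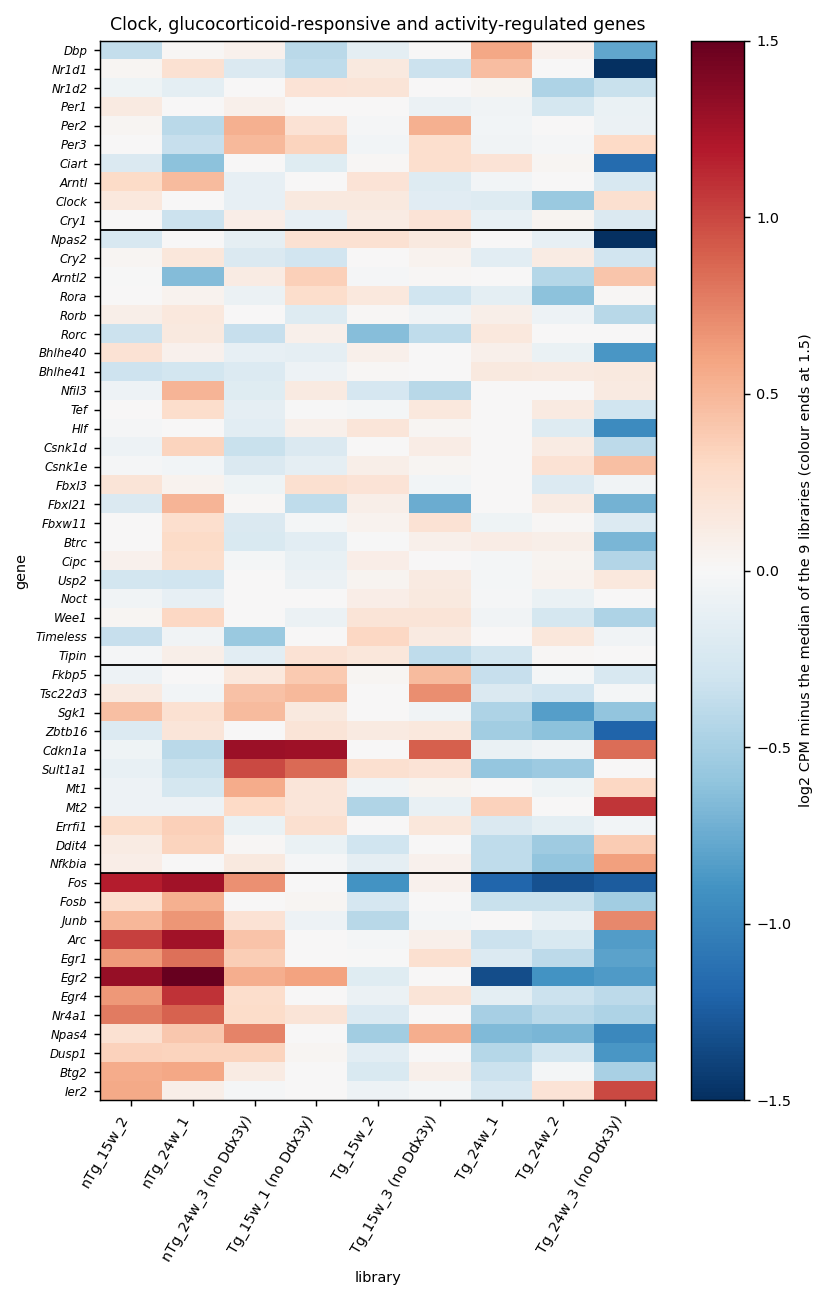
Log2 CPM minus the median of the 9 libraries for the 10 members and for the further clock, glucocorticoid-responsive and activity-regulated genes (rows, in 4 blocks from top to bottom; columns are libraries by group). Tg_24w_3 is the darkest blue column for Nr1d1, Ciart and Npas2 (7.23 CPM), while Fos and Arc are high in nTg_15w_2 and nTg_24w_1.

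By likeness to the mean of the 7 light-phase members over 9 libraries, the 5 highest of 13378 genes compared were Tpp1 (r = 0.97), Dnmt1 (0.97), Gtf3c1 (0.97), Cntfr (0.96) and Ttyh3 (0.96). The 5 lowest were Rnf169 (−0.98), Wbp4 (−0.98), Cbx1 (−0.97), Htatsf1 (−0.97) and Crybb3 (−0.97). Without Tg_24w_3 the same genes had r values of 0.83 to 0.89 and −0.94 to −0.88. None is a clock gene of the lists.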

How the data were processed

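The deposited tables hold the authors' raw counts of reads per gene, as whole numbers, and their TPM values; per the submitters' processing notes the tools were CASAVA, Trimmomatic 0.38, HISAT2 2.1.0, featureCounts 2.0.0 and DESeq2 1.26.0 on GRCm38. FPKM sheets were not used. Counts were tested with edgeR 4.0.16 (quasi-likelihood, TMM, filterByExpr) under R 4.3.3, as two-sided tests adjusted by Benjamini-Hochberg over all genes, at a threshold of 0.05. Genotype was fitted with age as a term, the age groups in 1 fit of 3 groups with nTg pooled, and the interaction in a fit of 4 groups. SE is the absolute log2 difference over the square root of F. Log2 CPM used a prior count of 2. Alternatives used DESeq2 1.42.0, limma 3.58.1 and log2(TPM + 0.1) or log2(TPM + 1), and correlations used scipy 1.17.1. Fits were tested on simulated data.

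Gene coordinates are GENCODE M21, 1-based. Pairs of libraries, within and across groups, differed by more than sampling noise (chi-square divided by its degrees of freedom, 9.11 to 80.7). Each library was counted as 1 sample, but such values cannot show that it came from a separate animal. The members and lists were chosen with earlier results of these data known. All members were named, with fixed genes of each list, overlapping genes and the 5 most and least alike genes. Any called gene of the clock, glucocorticoid, activity-regulated and cold-inducible lists was named too. Cdkn1a, Mt1, Xist, Ddx3y, Dsp, Prox1, C1ql2 and Drd1 were named after their values were seen. Alternatives are given for members' differences larger than 1 SE and for those otherwise printed under an alternative, a rule chosen after the values were seen.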

Additional observations from a re-analysis of the deposited data

How the results depend on the processing

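No member passed the threshold under any alternative run. Over 10 members in 5 comparisons, 930 values were computed under alternatives and 113 had another sign than the value reported, in 30 of 50 differences; 112 of the 113 belonged to differences smaller than their SE and 67 to settings that left libraries out. Among values printed, Dbp at 24 weeks against nTg was −0.063 on log2(TPM + 0.1) and −0.058 on log2(TPM + 1), and ran from −0.221 to 0.423 leaving out single libraries. Dbp between the ages in Tg ran from −0.132 to 0.51. Nr1d1 between the ages was −0.294 and −0.28 with TPM, −0.138 with a replicate block, −0.394 with the Ddx3y term and −0.436 to 0.405 leaving out single libraries. The interaction of Per2 ran from −0.798 to 0.125 leaving out single libraries, and was −0.811 without Tg_24w_3 and nTg_24w_1 together. Members correlating negatively with Arntl numbered 4, and 2 with log2(TPM + 0.1), 2 without the 2 farthest libraries, and 2 to 6 leaving out single libraries.

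The number of all genes called moved more. In the order Tg against nTg, 15 weeks, 24 weeks, between ages and interaction, it was 0, 0, 23, 6 and 0; with no filter on low counts 135, 65, 559, 701 and 17; with DESeq2 35, 2, 218, 284 and 1; and with limma voom and quality weights 7, 5, 238, 102 and 1. Without Tg_24w_3 and nTg_24w_1 together it was 3, 0, 107, 71 and 4, and with the Ddx3y term 1, 0, 81, 838 and 1. On log2(TPM + 0.1) it was 9 at 24 weeks and 1 between ages, and on log2(TPM + 1) 12 and 2. The 15-week libraries alone gave 20 for genotype, and the 24-week nTg libraries alone gave 4 for Tg at 24 weeks. Leaving out single libraries gave 0 to 5, 0, 4 to 36, 1 to 14 and 0 to 1. Without nTg_15w_2, the genotype fit is the same as that of Tg at 24 weeks against the 24-week nTg libraries alone. The cause of these changes in number was not tested. Deviations of same-numbered libraries from their group means had r between −0.24 and 0.29, and those of differently numbered libraries between −0.30 and 0.28. Such values cannot show whether the numbers pair the libraries, and the labels do not say. A replicate block gave 1, 0, 15, 4 and 1 genes and 0 members. The interaction without nTg_15w_2 could not be fitted.

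Groups held 1 to 3 libraries, and the lowest raw count of a member in a library was 96. The strand setting of the counting and the hour of sampling are not known, so overlapping reads and time of day cannot be told apart from the levels shown.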
